A study of Mus musculus with 12 samples.

Results

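The genes described here are 8 that make, salvage or clear the deoxynucleotides used for DNA synthesis: Rrm1, Rrm2, Rrm2b, Tyms, Tk1, Dtymk, Dut and Samhd1. They were matched by symbol, and all 8 were found among the 45792 genes of each table and passed the filter on low counts. RNA had been sequenced from 12 cultures of neural stem cells (NSCs) from the forebrain of newborn mouse pups on a C57BL/6J background, grown in serum-free medium with EGF and FGF. The groups of 4 libraries were wild type (WT) NSCs without treatment, Ncf1-/- NSCs given vehicle, and Ncf1-/- NSCs given recombinant mouse Igfbp2, with no other allele or agent in the labels, which list the vehicle-treated cultures as untreated (the vehicle is named in the methods of the study). A second sample sheet in the study's code lists WT replicate 12 as treated with apocynin, an NADPH oxidase inhibitor, against the label that was followed here. Ncf1 is a subunit of the phagocyte-type NADPH oxidase, and Igfbp2 is a secreted binding protein of insulin-like growth factors. Treatment began 48 h after plating and RNA was taken 48 h later. The labels give 100 ng per ml of Igfbp2, and the methods of the study give a lower dose. The vehicle-treated and Igfbp2-treated Ncf1-/- cultures are described as paired cultures of the same pups, which would make 4 animals of the 8 knockout libraries, although the Y chromosome genes given below differ within every pair.

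Ribonucleotide reductase turns ribonucleotides into deoxynucleotides and is the rate-limiting step of their supply. It is built from the large subunit Rrm1, which holds the catalytic and regulatory sites, and a small subunit that carries the radical, either Rrm2, made in S phase and destroyed as cells leave mitosis, or Rrm2b, a p53 target that serves quiescent cells and DNA repair. Thymidine nucleotides come from Tyms, which methylates dUMP, or from thymidine through Tk1, and both routes pass through the kinase Dtymk. Dut removes dUTP before it can enter DNA, and Samhd1 degrades deoxynucleotide triphosphates, mostly outside S phase.

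Libraries held between 18201622 and 34086554 estimated counts, and the members had between 101 and 7935 counts in a library. Levels are given as CPM (counts scaled to a common library total with TMM factors) within a gene, and as TPM (RSEM's level per length) where genes are set side by side. Ncf1 itself had 2 to 7 counts in WT, 2 to 4 in vehicle-treated and 1 in each Igfbp2-treated Ncf1-/- library, which is too few to check the genotype. The libraries also differed in ways that the labels do not give. Summed over 10 markers, the oligodendrocyte list stood at 3149 to 11201 CPM in WT and at 2130.1 to 2299 CPM in vehicle-treated Ncf1-/- libraries, with Mbp at 327 to 3885 and 2.37 to 3.40 CPM. Olig1 and Olig2 went the other way from this sum. Their medians were 794 and 354 CPM in WT and 1463 and 438 CPM in vehicle-treated Ncf1-/- libraries. The other markers of the list had lower medians in the latter. The 6 astrocyte markers summed to 6211 to 11855 against 2751 to 3374 CPM, the 6 neuronal markers to 595 to 764 against 482 to 546 CPM, and the 8 neural stem cell markers to 2342 to 7838 against 7588 to 8219 CPM. In Igfbp2-treated libraries these sums were 2124 to 2210.2, 3076 to 4113, 432 to 459 and 7475 to 8026 CPM. Of the stem cell markers, Sox2, Msi1, Prom1 and Pax6 had lower medians in vehicle-treated Ncf1-/- than in WT libraries. These were 198 against 383, 78.7 against 142, 11.4 against 26.6 and 34.1 against 43.5 CPM. Nes, Vim, Hes1 and Fabp7 had higher ones. Of the astrocyte markers, only Aldh1l1 had a higher median (1082 against 486 CPM). Of the neuronal markers, only Snap25 had a higher one (1.76 against 1.33 CPM). Map2 made up most of the neuronal sum, with medians of 468 CPM in vehicle-treated Ncf1-/- and 568 CPM in WT libraries. Microglial markers summed to at most 2.13 CPM and endothelial markers to at most 14.3 CPM in any library, and the mesenchymal list reached 23.9 CPM in WT. Of the mesenchymal markers, only Pdgfrb had a higher median in WT (12.7 against 0.30 CPM in vehicle-treated Ncf1-/- libraries). Col1a1 and Col1a2 had lower ones in WT (0.85 against 2.16 and 0.29 against 0.70 CPM). The part of these differences in the results below was not tested. WT replicate 11 stood apart within its group, since it set the upper end of the neural stem cell sum and the lower end of the oligodendrocyte sum, where the other WT libraries had 2342 to 3559 and 6713 to 11201 CPM. The Y chromosome genes Uty, Kdm5d, Eif2s3y and Ddx3y summed to 105 to 116 CPM in vehicle-treated and 7.79 to 9.18 CPM in Igfbp2-treated Ncf1-/- libraries, and WT replicate 12 had 6.46 CPM where the WT median was 109 CPM. Xist, made from an inactive X chromosome, was at 3.87 to 5.22 CPM in WT replicates 9 to 11, at 291 CPM in WT replicate 12, at 72.3 to 87.8 CPM in vehicle-treated and at 166 to 275 CPM in Igfbp2-treated libraries, so that the vehicle-treated libraries held both Y chromosome transcripts and Xist. Every stated pair of Ncf1-/- cultures differed in these genes, and the treatment cannot be told apart from the make-up of the cultures by sex. The comparisons with WT are not free of this make-up either, since Xist in every Ncf1-/- library lay above WT replicates 9 to 11. Its part in those comparisons was not tested. The comparisons with WT were repeated without WT replicate 11 and without WT replicate 12. Leaving out replicate 12 leaves only WT libraries with low Xist.

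The first comparison asked how the supply genes differ between NSCs that lack Ncf1 and WT NSCs. Of the 8 members, 7 rose in vehicle-treated Ncf1-/- NSCs, against 28.9% of the 15706 genes tested, and 0 fell, against 28.2% of the genes tested. Only Rrm2b was not called. DESeq2 called 0 members lower too, and 0 were lower at an unadjusted p under 0.05. When libraries were scaled by their totals alone, 6024 genes were called higher and 3159 lower, against 4545 and 4433 with TMM, the median of all genes moved to 0.19, and the same count of 7 members was called. The median log2 fold change of the members was 1.21, against 0.02 for all genes tested, and the 7 called members had no overlap in CPM between the groups, which 51.2% of the genes tested also showed. The number called was 7 both without WT replicate 12 (median 1.13) and without WT replicate 11 (median 1.12). In bulk RNA, fewer cells that make a transcript and less of it per cell cannot be told apart.

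**Figure D1:**
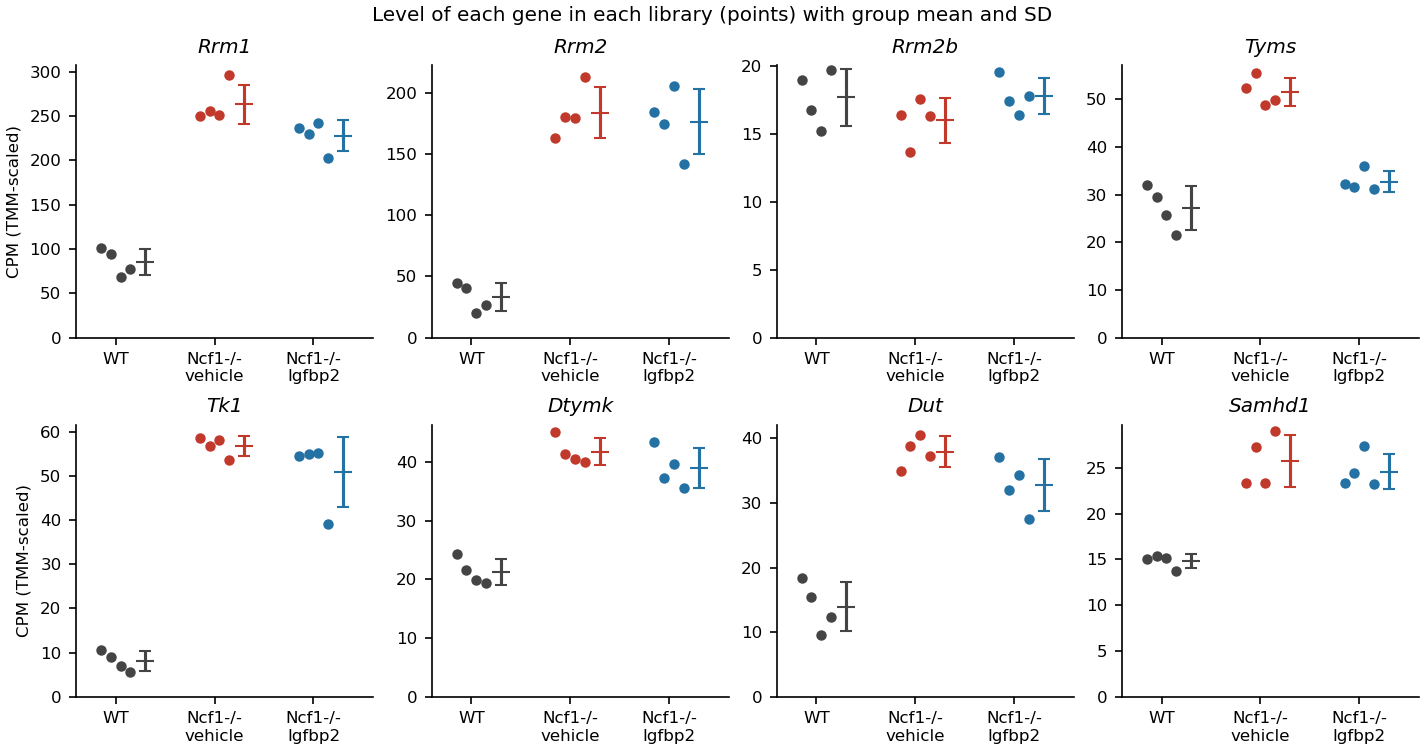
Level of the 8 genes in each of the 12 libraries, as TMM-scaled CPM on axes that start at 0, with the mean and SD of 4 libraries beside the points. The vehicle-treated Ncf1-/- libraries lie above all WT libraries for 7 genes and overlap with them for Rrm2b, and Tyms is lower in all 4 Igfbp2-treated than in all 4 vehicle-treated libraries.

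Ribonucleotide reductase showed unequal changes in its subunits. Rrm1 (ENSMUSG00000030978, GRCm38 chromosome 7, 102441695 to 102469771, plus strand) stood at 101, 94.0, 68.9 and 77.1 CPM in WT replicates 9 to 12, and at 249.9, 256, 251 and 296 CPM in vehicle-treated Ncf1-/- replicates 1 to 4. The groups were well apart, and the log2 change amounted to 1.63 ± 0.12 (SE; edgeR adjusted p = 3.15e-07). Rrm2 (ENSMUSG00000020649, chromosome 12, 24708241 to 24714146, plus strand), the S phase small subunit, was at 44.8, 40.05, 20.4 and 26.7 CPM in WT and at 163, 179.7, 179 and 213 CPM in Ncf1-/- libraries. All knockout values lay above the highest WT value, with a log2 fold change of 2.48 ± 0.22 (SE; adjusted p = 1.12e-06). Rrm2b (ENSMUSG00000022292, chromosome 15, 37923952 to 37961318, minus strand), the small subunit of resting cells, was at 19.0, 16.7, 15.2 and 19.7 CPM in WT and at 16.4, 13.6, 17.6 and 16.3 CPM in Ncf1-/- libraries. These ranges overlapped, with a log2 fold change of −0.14 ± 0.11 (SE; adjusted p = 0.272), which became 0.039 when library totals replaced TMM factors. Of the 9134 exon bases of Rrm2b, 734 lie under exons of Gm49085 on the other strand, whose level is not given here. By size of rise among the 15706 genes, Rrm2 was at place 230, Rrm1 at 789 and Rrm2b at 9409.

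The thymidylate genes rose by unequal amounts. Tk1 (ENSMUSG00000025574, chromosome 11, 117815526 to 117826092, minus strand), the salvage kinase of proliferating cells, had the largest change of the 8. It was at 10.6, 9.07, 7.03 and 5.62 CPM in WT and at 58.5, 56.7, 58.1 and 53.6 CPM in Ncf1-/- libraries, a log2 fold change of 2.81 ± 0.17 (SE; adjusted p = 8.34e-08), or 7.01-fold. Of its 5198 exon bases, 83 lie under exons of Afmid on the other strand, which was at 1.05 to 4.93 CPM over the libraries, and whether the counting used strand is not given in the sources used here. Tyms (ENSMUSG00000025747, chromosome 5, 30058202 to 30073617, minus strand), thymidylate synthase, was at 32.0, 29.5, 25.6 and 21.4 CPM in WT and at 52.3, 55.4, 48.7 and 49.8 CPM in Ncf1-/- libraries, a log2 fold change of 0.93 ± 0.11 (SE; adjusted p = 1.20e-05). Dtymk (ENSMUSG00000026281, chromosome 1, 93792576 to 93801934, minus strand), which phosphorylates dTMP from either route, ranged from 19.3 to 24.3 CPM in WT and from 40.1 to 45.1 CPM in Ncf1-/- libraries, with a log2 fold change of 0.97 ± 0.09 (SE; adjusted p = 1.70e-06). The 3 genes of the thymidylate branch were each higher in every vehicle-treated Ncf1-/- library than in every WT library.

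The genes that clear nucleotides also rose. Dut (ENSMUSG00000027203, chromosome 2, 125247190 to 125258608, plus strand), the dUTP pyrophosphatase, was at 18.4, 15.5, 9.52 and 12.4 CPM in WT and at 34.98, 38.8, 40.6 and 37.3 CPM in Ncf1-/- libraries, with a log2 fold change of 1.45 ± 0.17 (SE; adjusted p = 9.49e-06). Samhd1 (ENSMUSG00000027639, chromosome 2, 157097533 to 157135265, minus strand), which opposes the synthetic enzymes, had the smallest rise of the 7, from 15.1, 15.4, 15.1 and 13.8 CPM to 23.3, 27.3, 23.4 and 29.0 CPM. Its log2 fold change was 0.79 ± 0.09 (SE; adjusted p = 1.07e-05), and its WT libraries were the closest to each other of any member that rose, with an SD of 0.752 CPM. By the test that the study ran on TPM, Samhd1 was not called (adjusted p = 0.0632).

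**Figure D2:**
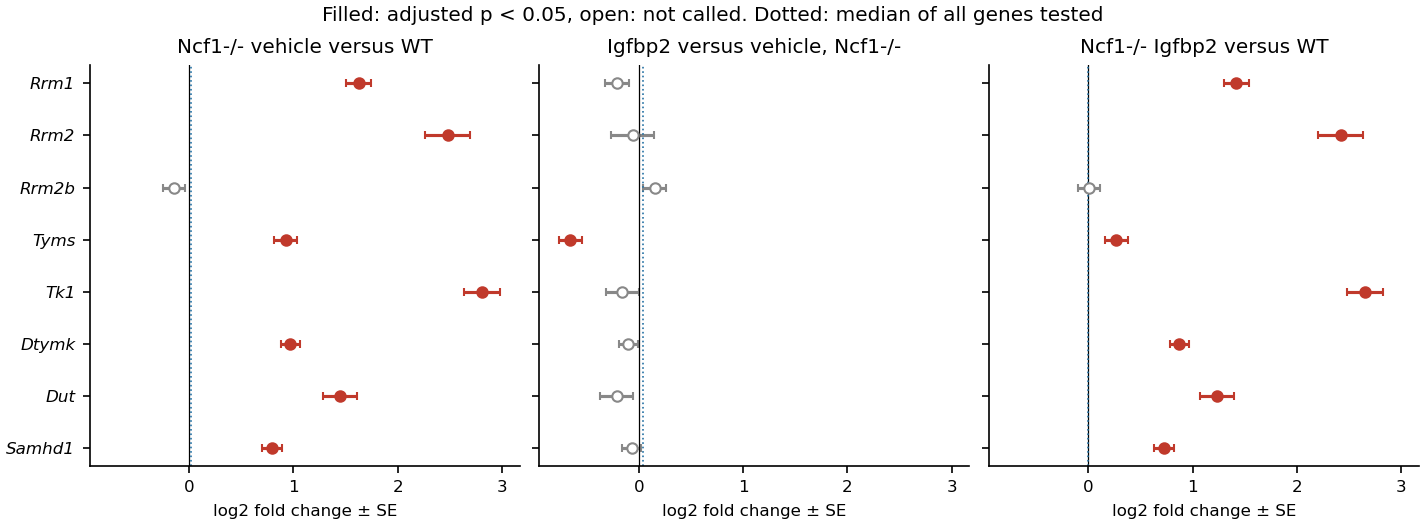
Fitted log2 fold change with its SE for the 8 genes in the 3 comparisons, from edgeR over 12 libraries. Filled points passed an adjusted p of 0.05, open points did not, and the dotted line is the median of the 15706 genes tested: 7 genes are filled in each comparison with WT and 1, Tyms, between the treatments.

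Proliferation genes moved in the same comparison. The 13 cell cycle genes listed beside the members were Pcna, Mcm2 to Mcm7, Mki67, Top2a, Cdk1, Ccnb1, Ccne1 and Ccna2. All 13 rose in vehicle-treated Ncf1-/- NSCs, against 28.9% of the genes tested. Their median log2 fold change was 1.53, with a range from 1.25 to 2.43. Without WT replicate 11 or 12, 13 were again called higher, with medians of 1.37 and 1.44. Their summed CPM was 499 to 864 in WT, 1975 to 2575 in vehicle-treated and 1797 to 2320 in Igfbp2-treated Ncf1-/- libraries. Tk1 changed by more than any of these 13 (2.81 ± 0.17). Rrm2 (2.48 ± 0.22) lay within its SE of the highest of them, Ccna2 (2.43 ± 0.23) and Cdk1 (2.42 ± 0.17; log2, ± SE). Rrm1 and Dut lay inside the range of the 13, and Tyms, Dtymk, Samhd1 and Rrm2b lay below it. The part of cell number in cycle in the members' values was not tested. Among the WT libraries, replicates 9 and 10 had the highest values for 6 of the 8 members and for 11 of the 13 cell cycle genes. Rrm2b and Samhd1 were the members that departed from this order.

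To see how far single genes shared a member's course over the 12 libraries, log2 CPM was centred on each gene's mean, and the root mean square difference was taken over the 11172 genes that averaged 5 CPM or more. The 4 genes closest to Rrm2 were Cdk1, Ddias, Hmmr and Ccna2, at differences of 0.17 for each of them, and Tk1 was the 16th closest, at 0.22. Rrm1 was at place 208 with 0.48, and Rrm2b at place 6022 with 1.24. The 4 genes closest to Rrm2b were Necap1, Derl1, Rab18 and Mrps12 (0.07 to 0.08), and its nearest member, Samhd1, was at place 8014 with 0.44. Samhd1 had Taf4b, Hnrnpf, Rfwd3 and Anp32e as its closest (0.08 each), and its nearest member was Dtymk, at place 265 with 0.16. These differences describe the 12 libraries, which include the 3 groups, and genes with small changes lie close to many others.

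The levels per length gave a different order of the members in the groups. In WT libraries the highest mean TPM was that of Dtymk (18.6 ± 0.937; SD, n = 4), followed by Rrm1 (15.9 ± 1.13), Rrm2 (12.2 ± 3.11), Dut (9.62 ± 1.52), Tyms (6.67 ± 0.752), Tk1 (5.43 ± 0.78), Rrm2b (4.37 ± 1.18) and Samhd1 (3.62 ± 0.51). The ranges of neighbours in this order overlapped, except between Dtymk and Rrm1 and between Dut and Tyms. In vehicle-treated Ncf1-/- libraries the order was Rrm2 (71.3 ± 15.2 TPM; SD, n = 4), Rrm1 (51.6 ± 9.59), Dtymk (37.9 ± 3.06), Tk1 (35.2 ± 2.39), Dut (28.6 ± 3.54), Tyms (26.0 ± 2.88), Samhd1 (6.70 ± 1.34) and Rrm2b (4.19 ± 0.245). Neighbours overlapped there except for Rrm1 with Dtymk, Tyms with Samhd1, and Samhd1 with Rrm2b. Igfbp2-treated libraries had the same order, from Rrm2 at 49.1 ± 14.8 TPM to Rrm2b at 2.94 ± 0.71 TPM (SD, n = 4).

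Ratios within a library do not depend on how libraries are scaled, and 5 of them were tested in the 3 comparisons by a two-sided exact permutation test, adjusted over the 15 tests. With 4 libraries against 4 the smallest p that the test can give is 0.0286. The log2 ratio of Rrm2 to Rrm1 in TPM was −0.18, −0.20, −0.78 and −0.51 in WT and 0.37, 0.47, 0.50 and 0.50 in vehicle-treated Ncf1-/- libraries, so that Rrm2 went from below to above Rrm1 (difference 0.88, exact permutation p = 0.0286, adjusted p = 0.0429). For Rrm2b over Rrm2, the WT libraries had log2 ratios of −2.04, −2.003, −1.07 and −0.80 and the Ncf1-/- libraries of −3.82, −4.08, −4.02 and −4.35. Per length, Rrm2b thus stood at 0.244 to 0.574 of Rrm2 in WT and at 0.049 to 0.0708 of it in vehicle-treated Ncf1-/- NSCs (difference −2.59 log2, exact permutation adjusted p = 0.0429). Rrm2b over Rrm1 fell by 1.71 and Samhd1 over Rrm1 fell by 0.81 on the log2 scale, and Tk1 over Tyms rose by 0.74, each without overlap and with the same adjusted p of 0.0429 by exact permutation. The Tk1 to Tyms ratio depended on the effective length described below: in counts without length it rose by 1.91, and by 2.40 between Igfbp2-treated and WT libraries. Without WT replicate 12 the differences against WT in TPM were 0.85 for Rrm2 over Rrm1, −1.52 for Rrm2b over Rrm1, −2.36 for Rrm2b over Rrm2, −0.78 for Samhd1 over Rrm1 and 0.73 for Tk1 over Tyms, and without WT replicate 11 they were 0.76, −1.70, −2.45, −0.68 and 0.73, at an exact permutation p of 0.0571, the smallest that 4 against 3 libraries can give. Between Igfbp2-treated Ncf1-/- and WT libraries the differences were 0.996 for Rrm2 over Rrm1, −1.57 for Rrm2b over Rrm1, −2.57 for Rrm2b over Rrm2, −0.59 for Samhd1 over Rrm1 and 0.92 for Tk1 over Tyms, each again at an exact permutation adjusted p of 0.0429.

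**Figure D3:**
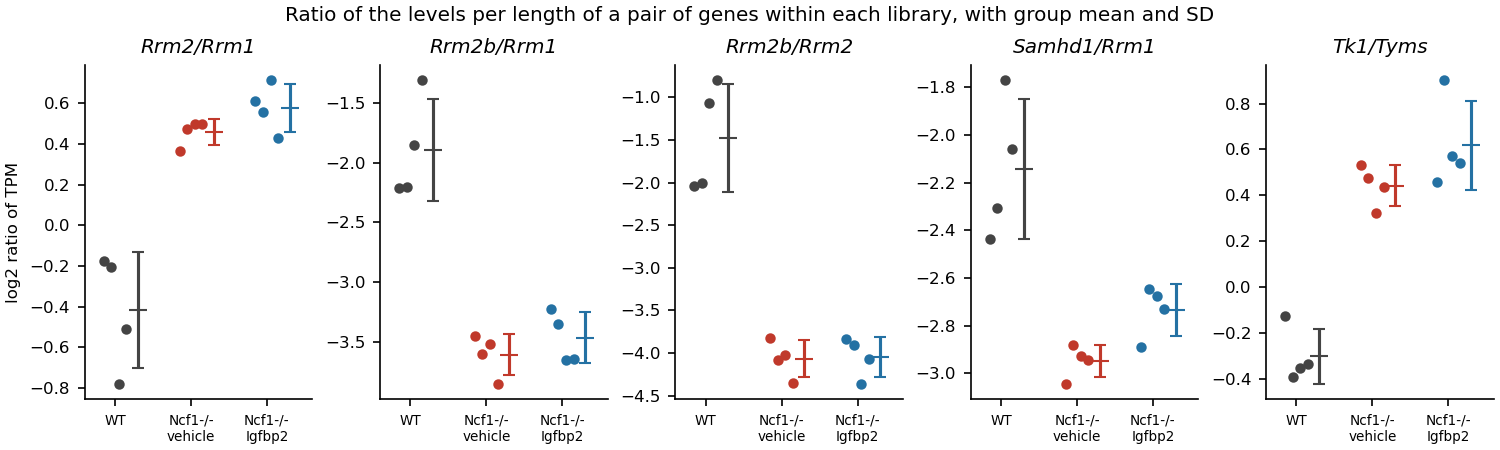
Log2 ratio of TPM for 5 pairs of genes within each library, with the mean and SD of 4 libraries per group. WT libraries lie apart from both Ncf1-/- groups in all 5 panels, and the Ncf1-/- groups overlap in each of them.

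Tyms differed between the groups in effective length, the average length over its transcripts, weighted by their estimated share, that RSEM divides by. It was 2947, 2803, 3005 and 2902 bases in WT, 1587, 1613, 1238 and 1496 bases in vehicle-treated and 1032, 1366, 1214 and 1465 bases in Igfbp2-treated Ncf1-/- libraries. The WT libraries were apart from all others, and by the log2 ratio of means between vehicle-treated Ncf1-/- and WT (−0.97) Tyms was the 10th most shortened of 15701 genes. The files list 9 transcripts for Tyms, between 447 and 3884 bases long in GENCODE M21, among them coding ones of 3163, 559 and 447 bases. In TPM, Tyms was at 6.88, 7.27, 6.96 and 5.57 in WT and at 22.3, 25.2, 28.4 and 28.1 in vehicle-treated Ncf1-/- libraries, so that the change on the log2(TPM + 1) scale was 1.81 where that in counts was 0.93. The other members without overlap in effective length between these groups, which 7.9% of the genes tested also showed, were Tk1, whose mean went from 1055 to 1195 bases, and Dut, from 1025 to 986 bases. Without WT replicate 11 or 12, Tyms (log2 ratios of −0.96 and −0.98), Tk1 and Dut again had no overlap. In Igfbp2-treated libraries Tk1 was at 1256 to 1277 bases, and Rrm2b reached 4163 bases in replicate 8 against a WT mean of 2987 bases. The levels of single transcripts were not analysed here, and which of them carry the shift in Tyms was not tested.

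**Figure D4:**
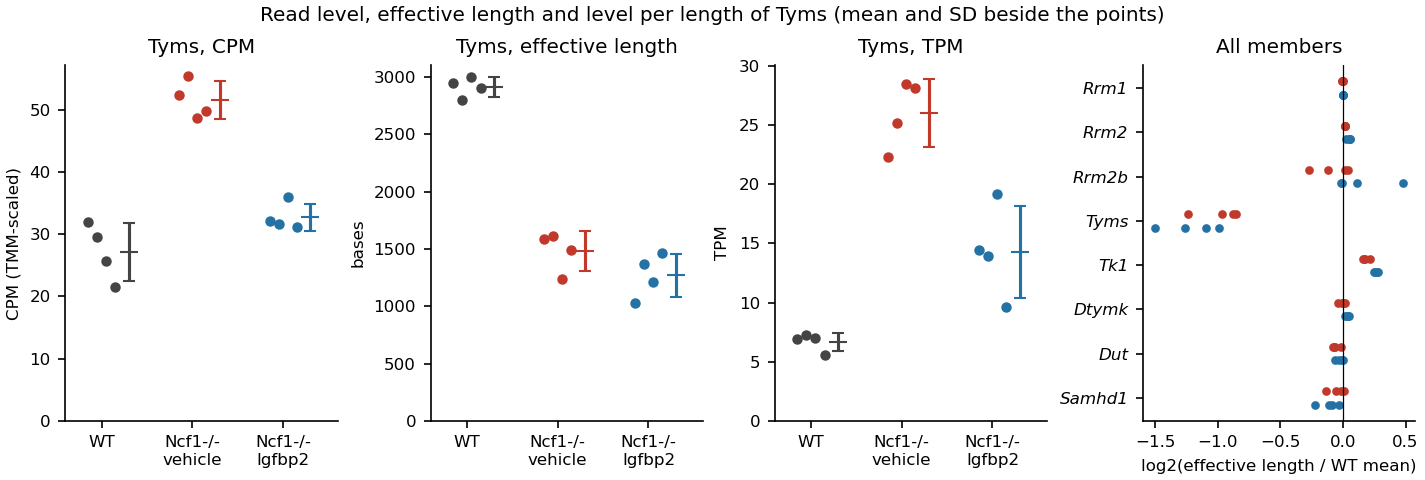
Tyms in each library as CPM, as effective length in bases and as TPM, with mean and SD of 4 libraries, and the log2 effective length of the 8 genes relative to the WT mean, with vehicle-treated Ncf1-/- libraries in red and Igfbp2-treated ones in blue. WT effective lengths of Tyms lie between 2803 and 3005 bases and those of the Ncf1-/- libraries between 1032 and 1613 bases, and among the other members 1 Igfbp2-treated library of Rrm2b lies at 4163 bases and those of Tk1 at 1256 to 1277 bases.

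The second comparison asked what Igfbp2 changed in Ncf1-/- NSCs. Tyms alone of the 8 members was called, and it fell, where 10.7% of the genes tested were called lower. Of the 8, 0 rose by edgeR or DESeq2, or at an unadjusted p under 0.05, against 14.2% of the genes tested. Tyms went from 52.3, 55.4, 48.7 and 49.8 CPM with vehicle to 32.1, 31.6, 35.9 and 31.2 CPM with Igfbp2, without overlap, and its log2 fold change came to −0.66 ± 0.11 (SE; adjusted p = 0.00195). The fall was called in each of the 12 fits that left out a library, with values from −0.75 to −0.62. Among the 8, Rrm1 was the other gene without overlap, at 237, 229, 243 and 203 CPM with Igfbp2, but its log2 fold change of −0.21 ± 0.12 (SE) was not called (adjusted p = 0.207). A lack of overlap was found for 34.1% of the genes tested in this comparison.

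The other members gave small values. The log2 fold changes were −0.06 ± 0.20 for Rrm2 (adjusted p = 0.857), −0.16 ± 0.16 for Tk1 (adjusted p = 0.488), −0.21 ± 0.16 for Dut (adjusted p = 0.348), −0.10 ± 0.09 for Dtymk (adjusted p = 0.431), −0.07 ± 0.09 for Samhd1 (adjusted p = 0.613) and 0.15 ± 0.11 for Rrm2b (adjusted p = 0.312; ± SE throughout). The median over the 8 members was −0.13, against 0.04 for all genes tested and −0.16 for the 13 cell cycle genes, of which edgeR and DESeq2 called 0, with 1 of them lower at an unadjusted p under 0.05. The calls depended on scaling and on the libraries fitted. With only these 2 groups in the fit, 3 members and 5 cell cycle genes were called lower, where 2759 of 15101 genes were. When libraries were scaled by their totals alone, the median of all genes moved to −0.23, 648 genes were called higher and 5258 lower (2238 and 1685 with TMM), and 5 members were called lower: Rrm1, Tyms, Dtymk, Dut and Samhd1. With limma on log2(TPM + 1) the median moved to −0.30, 200 genes were called higher and 6154 lower, and Rrm1, Tyms, Tk1, Dtymk and Dut were among those called lower. Of the 13 cell cycle genes, 3 were called lower with library totals and 7 with this limma fit, and 0 higher with either. Relative to the median of all genes, Tyms was at −0.69 and −0.56 in the fits with library totals and with limma, and Rrm2 at −0.09 and −0.26. Without that subtraction Rrm2b turned to −0.12 and −0.41 in these fits and was not called, and relative to the median it was at 0.11 and −0.12. The 5 ratios had p-values from 0.0571 to 0.971 by exact permutation between the treatments. On counts without length, Tk1 over Tyms rose by 0.49 without overlap (exact permutation p = 0.0286, adjusted p = 0.0390).

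Igfbp2-treated Ncf1-/- NSCs were also set against WT. This comparison shares its libraries with the other two, so that the values are given only side by side. Of the 8 members, 7 were higher, against 31.6% of the genes tested, and 0 were lower by edgeR, by DESeq2 or at an unadjusted p under 0.05, against 30.8%. CPM did not overlap for 6 of them, against 54.3% of the genes tested. The log2 fold changes were 1.42 ± 0.12 for Rrm1, 2.42 ± 0.22 for Rrm2, 2.65 ± 0.17 for Tk1, 0.87 ± 0.09 for Dtymk, 1.23 ± 0.17 for Dut and 0.73 ± 0.09 for Samhd1 (± SE), with adjusted p-values of at most 3.38e-05. Rrm2b was at 0.01 ± 0.11 (SE; edgeR adjusted p = 0.939), but it was called lower with limma on log2(TPM + 1) (−0.44, adjusted p = 0.0396) and on log2(TPM + 0.1) (−0.55, adjusted p = 0.0373), where the median of all genes was −0.25 and −0.40. Tyms was called at 0.27 ± 0.11 (SE; adjusted p = 0.0467), with Igfbp2-treated libraries at 31.2 to 35.9 CPM and WT libraries at 21.4 to 32.0 CPM. That call was lost in 11 of the 12 fits that left out a library (all but the one without WT replicate 9), with the lowest value without WT replicate 12 (0.10, edgeR adjusted p = 0.389), and with the stated culture pairs as a block (adjusted p = 0.0893), whereas on the log2(TPM + 1) scale Tyms was higher by 0.96 (limma adjusted p = 3.31e-04). Without WT replicate 11 or 12, 6 members were called.

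The wider set of nucleotide genes moved less uniformly. In vehicle-treated Ncf1-/- against WT NSCs, 28.9% of the genes tested were called higher and 28.2% lower. Of 40 other genes of deoxynucleotide salvage, folate-linked one-carbon supply and nucleotide kinases, 25 rose, 3 fell and 12 were not called in vehicle-treated Ncf1-/- against WT NSCs, with a median log2 fold change of 0.49. The largest rises were those of Upp1, which splits uridine (3.16 ± 0.44), Txn1, the thioredoxin that can reduce ribonucleotide reductase (2.29 ± 0.12), Shmt1, which passes one-carbon units to thymidylate synthesis (1.80 ± 0.14), and Mthfd1l of the mitochondrial folate pathway (1.68 ± 0.20). Txn1 rose from 65.9 ± 12.7 to 323 ± 13.9 CPM (SD, n = 4). Those that fell were Uck2, a uridine-cytidine kinase (−1.10 ± 0.13), Cmpk2, a mitochondrial nucleotide kinase (−0.51 ± 0.12), and Nme3, a nucleoside diphosphate kinase (−0.45 ± 0.18; ± SE). Of 20 genes that build purine and pyrimidine bases, 14 rose, 1 fell and 5 were not called, with a median of 0.45. Without WT replicate 12, 23 and 12 genes of these lists rose and 2 and 1 fell, and without WT replicate 11, 24 and 12 rose and 3 and 1 fell. Prps2 and Prps1, which make the ribose phosphate donor, rose by 1.44 ± 0.12 and 0.89 ± 0.10, Umps, which closes pyrimidine synthesis, by 1.16 ± 0.15, and Adsl of the purine route by 0.93 ± 0.10 (log2, ± SE). The members' median of 1.21 thus stood above those of both wider lists, and the difference between lists was not tested.

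**Figure D5:**
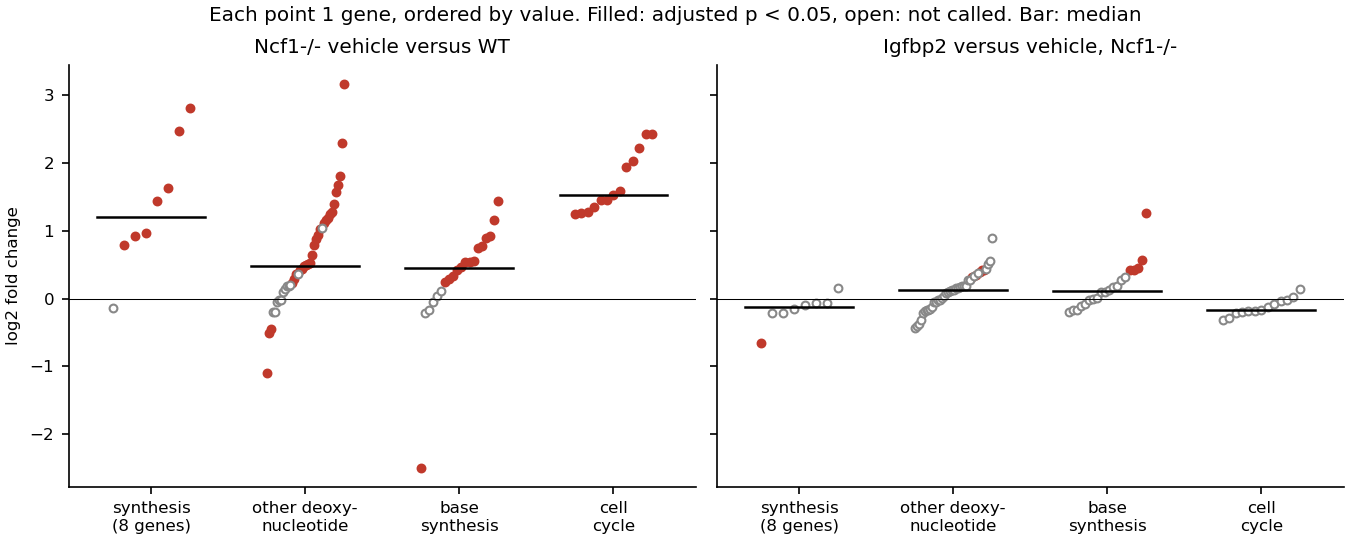
Log2 fold change of each gene in the 8 members, 40 other deoxynucleotide genes, 20 base synthesis genes and 13 cell cycle genes, for both main comparisons. Filled points passed an adjusted p of 0.05 and bars are medians, which are 1.21, 0.49, 0.45 and 1.53 against WT and −0.13, 0.13, 0.11 and −0.16 between the treatments.

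After Igfbp2, 5 of the 40 other deoxynucleotide genes rose, 0 fell and 35 were not called, with a median of 0.13. Of the genes tested, 14.2% were called higher and 10.7% lower, so that the share of the 40 that rose was near that of all. DESeq2 also called 5 higher and 0 lower, and 2 were lower at an unadjusted p under 0.05 with edgeR. The direction depended on scaling: 0 were called higher and 10 lower with library totals, 0 and 13 with limma on log2(TPM + 1), and 0 and 3 by the test that the study ran on TPM. The largest of these rises were those of Ak1, an adenylate kinase (0.43 ± 0.09), Guk1, the guanylate kinase (0.42 ± 0.11), Uck2 (0.39 ± 0.13) and Shmt2, the mitochondrial serine hydroxymethyltransferase (0.35 ± 0.09; log2, ± SE). Of the 20 base synthesis genes, 5 rose and 0 fell, and DESeq2 gave the same counts. At an unadjusted p under 0.05, 7 were higher and 0 lower with edgeR, and 2 were lower with DESeq2. With library totals 0 were called higher and 5 lower, with limma on log2(TPM + 1) 0 and 6, and by the test of the study 0 and 1. The largest rises with TMM factors were those of Cad, which starts pyrimidine synthesis (0.56 ± 0.15), Aprt, which salvages adenine (0.45 ± 0.14), Impdh1, which opens the guanine branch (0.43 ± 0.12), and Pfas of the purine route (0.42 ± 0.10; log2, ± SE). With the culture pairs as a block, 3 and 2 genes of these lists were called, and without 1 library between 2 (without vehicle-treated replicate 1 or 2 or Igfbp2-treated replicate 5) and 7 (without WT replicate 11), and between 1 (without vehicle-treated replicate 3 or Igfbp2-treated replicate 6 or 7) and 8 (without WT replicate 11).

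Because 7 members rose together, the 250 bases before the start of transcription that RefSeq gives (GRCm38.p6) were read from its promoter table, which gave a sequence for 7 of the 8 members. Rrm2b was not among them. The RefSeq start can differ from that of the gene as placed above from GENCODE: of the 250 bases, 13 lie inside the gene so placed for Rrm2, 78 for Tk1, 169 for Samhd1 and 250 for Dut, and 0 for Rrm1, Tyms and Dtymk. The motifs searched on both strands were 4 E2F-type words (TTTCCCGC, TTTCGCGC, TTTGCCGC and TTTGGCGC), the CCAAT box and the CHR element (TTTGAA). The CCAAT box occurred in 3 of the 7 windows, those of Rrm1, Rrm2 and Dtymk, against 33.8% of 32817 promoter windows, and so at a share near that of all. The E2F words and TTTGAA occurred in 0 of the 7, where 1.86% and 16% of all windows hold them. The windows with a match are shown with that of Tk1, the member with the largest rise, which has none, each from 5′ to 3′ on the strand of the gene and with CCAAT or its reverse complement in capitals. They are chr7:102441445-102441694 for Rrm1, chr12:24708004-24708253 for Rrm2, chr1:93801935-93802184 (minus strand) for Dtymk and chr11:117826015-117826264 (minus strand) for Tk1.
Rrm1: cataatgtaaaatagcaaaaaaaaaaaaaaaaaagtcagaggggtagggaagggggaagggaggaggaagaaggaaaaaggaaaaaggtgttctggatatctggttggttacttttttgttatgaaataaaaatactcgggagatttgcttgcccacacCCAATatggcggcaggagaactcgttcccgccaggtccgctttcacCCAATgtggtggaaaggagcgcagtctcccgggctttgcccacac
Rrm2: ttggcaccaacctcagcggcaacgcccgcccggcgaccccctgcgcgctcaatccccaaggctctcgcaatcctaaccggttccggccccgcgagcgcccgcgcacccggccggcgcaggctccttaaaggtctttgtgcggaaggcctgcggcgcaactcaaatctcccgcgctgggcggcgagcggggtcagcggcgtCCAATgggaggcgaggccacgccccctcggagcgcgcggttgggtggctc
Dtymk: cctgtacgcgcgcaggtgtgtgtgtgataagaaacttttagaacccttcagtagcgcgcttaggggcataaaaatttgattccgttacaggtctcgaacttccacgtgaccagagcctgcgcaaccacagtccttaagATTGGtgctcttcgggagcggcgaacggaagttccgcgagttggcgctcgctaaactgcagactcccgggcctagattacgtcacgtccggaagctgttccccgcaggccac
Tk1: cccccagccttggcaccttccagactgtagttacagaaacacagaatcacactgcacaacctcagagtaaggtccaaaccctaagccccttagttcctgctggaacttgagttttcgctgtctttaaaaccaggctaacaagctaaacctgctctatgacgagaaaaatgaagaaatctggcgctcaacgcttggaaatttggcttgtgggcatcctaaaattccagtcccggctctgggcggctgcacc
In Rrm1 the matches lie 91 to 87 and 45 to 41 bases before the start, and in Rrm2 a match lies 50 to 46 bases before it. In Dtymk the match is on the other strand, 112 to 108 bases before the start.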

How the data were processed

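The 12 libraries, 4 per group by their titles, were rRNA-depleted RNA that the authors mapped with Bowtie2 (build GRCm38, per the labels) and quantified with RSEM, for which no versions are given. The files deposited by the authors hold an estimated count (RSEM's expected count, unnormalized, 15.9% not whole), TPM and effective length (in bases, a weighted mean over transcripts) per gene. The merged table deposited by the authors holds a score that equals TPM times the number of transcripts. It served only to match symbols. Whether reads were counted by strand is not given in the sources used here.

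Counts were rounded, filtered with filterByExpr, scaled with TMM factors and fitted over all 3 groups at once by the quasi-likelihood method of edgeR 4.0.16 (limma 3.58.1, R 4.3.3). Tests were two-sided, adjusted by the Benjamini-Hochberg method over 15706 genes, and called under 0.05. Of the members' 96 estimated counts, 48 were exactly whole as deposited. On simulated data for Ncf1-/- against WT with 200 changed genes of 15706 (log2 fold change 1.5, dispersion 0.02), 199 were recovered with 8 false calls. The simulation used the same dispersion for every gene. It does not give the rate of false calls in these data, where 8978 genes were called in this comparison. The p-values measure the spread between the cultures of a group. In edgeR that spread is shared over the 3 groups, so that the WT libraries enter the test of Igfbp2 against vehicle. The methods of the study describe the cells of each pup as grown separately, yet every vehicle-treated Ncf1-/- library held both Y chromosome transcripts and Xist. Whether the cultures of a group come from separate animals was not tested. Ratios of TPM were compared by exact permutation. Likeness used log2(CPM + 0.5). DESeq2 1.42.0, limma on log2(TPM + 1) and log2(TPM + 0.1), other scalings and filters, the study's own test on TPM, the culture pairs as a block and each library left out were the alternatives. The effective lengths and the cell cycle genes without WT replicate 11 or 12 were added after seeing the data.

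The sample sheet of the study pairs vehicle-treated with Igfbp2-treated Ncf1-/- cultures (replicate 1 with 5, 2 with 6, 3 with 7 and 4 with 8). With group means removed, the correlation across genes was −0.067 to 0.033 within pairs and −0.248 to 0.257 between other cultures. The members, the wider lists and the motifs were chosen with earlier results of these data known. Named genes are the members, Ncf1 and, from each wider list and main comparison, up to 4 called genes with the largest rise and up to 4 with the largest fall and a mean of at least 5 CPM.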

Additional observations from a re-analysis of the deposited data

Results flagged for a closer look

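In groups of 4 libraries, 39 sets of values (8 genes and 5 ratios in 3 groups) were searched for a library whose gap to the nearest other is over Dixon's critical share of the range, a limit that chance alone passes in about 1 of 20 groups. Rrm1 in vehicle-treated Ncf1-/- replicate 4 was at 296 CPM, above 249.9 to 256 CPM in the other 3 libraries (gap of 0.861 of the range). Without it the log2 fold change of Rrm1 against WT was 1.53, and it was called. Tk1 in Igfbp2-treated replicate 8 was at 39.1 CPM, below 54.5 to 55.2 CPM in the other 3 (gap of 0.96 of the range). Replicate 8 had the lowest CPM of the Igfbp2-treated libraries for 7 of the 8 members, all but Rrm2b, and without it the log2 fold change of Tk1 after Igfbp2 was −0.08 (adjusted p above 0.05).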

How the results depend on the processing

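Values below compare vehicle-treated Ncf1-/- with WT, Igfbp2-treated with vehicle-treated Ncf1-/-, and Igfbp2-treated Ncf1-/- with WT. A log2 fold change of at least 1 beside the adjusted p left 4 members against WT, 0 after Igfbp2 and 4 of Igfbp2-treated against WT (7, 1 and 7 without it), 13 and 0 other deoxynucleotide genes (28 and 5), and 3 and 1 nucleotide base synthesis genes (15 and 5). Of the 15706 genes tested, 3246, 914 and 3848 passed both limits in the 3 comparisons. Members called after Igfbp2 numbered 5 with library totals, 3 with only these groups, 4 in the study's test on TPM and 5 with limma at either pseudocount, all lower. Of all genes, 5258 of 15706, 2759 of 15101, 2084 of 27879, and 6154 and 6354 of 15706 were called lower in these fits. Of the other deoxynucleotide genes, 5 higher after Igfbp2 with TMM, the calls were 10 with library totals, 3 in the study's test and 13 with limma at either pseudocount, all of them lower, 3 without a filter, all higher, 15 with only these groups (10 higher, 5 lower) and 1 at an adjusted p under 0.01. Of the base synthesis genes, also 5 higher with TMM, they were 5 with library totals and 1 in the study's test, all lower, 9 with only these groups (7 higher, 2 lower) and 1 at 0.01. In the study's test 16 and 7 genes of these lists were called against WT, and 2 members of Igfbp2-treated against WT. After Igfbp2, members newly called were Rrm1 with library totals (−0.48), only these groups (−0.26) and limma (−0.67 and −0.68 at pseudocounts of 1 and 0.1), Tk1 in the study's test (−0.68) and limma (−0.70 and −0.72), Dtymk with library totals (−0.37), the study's test (−0.60) and limma (−0.59 and −0.61), Dut with library totals (−0.48), only these groups (−0.26), the study's test (−0.70) and limma (−0.69 and −0.72), and Samhd1 with library totals (−0.34). In the study's test the calls were lost for Samhd1 against WT (0.89) and, for Igfbp2-treated against WT, for Rrm1 (1.03), Tyms (1.10), Dtymk (0.43), Dut (0.87) and Samhd1 (0.44, and 0.33 and 0.40 with limma). The call of Tyms for Igfbp2-treated against WT was also lost with DESeq2 (0.26), library totals (0.18), RLE factors (0.25), genes of at least 5 CPM (0.22) and only these groups (0.24). Rrm2b changed sign against WT with library totals (0.039), after Igfbp2 with library totals (−0.12), the study's test (−0.51) and limma (−0.41 and −0.53), and for Igfbp2-treated against WT with library totals (−0.082), RLE factors (−0.013), genes of at least 5 CPM (−0.038), only these groups (−0.021), the study's test (−0.57) and limma (−0.44 and −0.55, there called lower). The Tk1 to Tyms ratio after Igfbp2 passed the test from counts without length (0.49). With the culture pairs as a replicate block, Tyms lost its call for Igfbp2-treated against WT (0.27), and after Igfbp2 3 other deoxynucleotide genes and 2 base synthesis genes were called. The block changed no other call of a member. With each library left out in turn, 7 members were called against WT and 1 after Igfbp2 each time, and 6 to 7 of Igfbp2-treated against WT. Other deoxynucleotide genes called after Igfbp2 numbered 2 to 7 and base synthesis genes 1 to 8. The log2 fold change after Igfbp2 was −0.18 to 0.037 for Rrm2, −0.17 to 0.011 for Samhd1 and −0.071 to 0.13 for the Rrm2b to Rrm2 ratio, and for Igfbp2-treated against WT −0.090 to 0.047 for Rrm2b and 0.10 to 0.36 for Tyms, whose call was lost in 11 of 12 such fits. In each case the cause was not tested.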
